A study of Mus musculus with 4 samples.

Results

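Sst interneurons are GABA-releasing neurons that make the peptide somatostatin, and 404 nuclei of this kind were described in single-nucleus RNA sequencing of adult mouse hippocampus. The nuclei were selected on their own measured counts: a droplet barcode was taken when it held at least 5000 unique molecular identifiers (UMIs, each standing for 1 captured RNA molecule), at least 3 UMIs of Gad1 and Gad2 together, at least 3 of Sst, at least 2 of Nxph1 and at most 1 of Slc17a7. The rule left 404 of 32572 barcodes with at least 5000 UMIs, and 404 of 2302 GABAergic nuclei, which passed the same limits on total, Gad1 plus Gad2 and Slc17a7 counts with no condition on Sst or Nxph1. The study set adult Control mice (genotype Kat6a-f/f, 2 libraries) beside adult Kat6a-cKO mice (NEX-cre and Kat6a-f/f, 2 libraries), and all 4 libraries therefore carry the floxed Kat6a alleles. Kat6a encodes a histone acetyltransferase, and the series title ties its loss to cognitive function and to RSPO2 and Wnt signalling in CA3. NEX-cre is a Cre recombinase gene at Neurod6, a locus used by forebrain excitatory neurons, so the deletion is not directed to interneurons.

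Somatostatin cells of the hippocampus arise in the medial ganglionic eminence (MGE), a transient region of the embryonic forebrain that also gives rise to parvalbumin cells. Many are O-LM cells, whose bodies lie in stratum oriens and whose axons reach the distal dendrites of pyramidal cells in stratum lacunosum-moleculare. Their excitatory inputs are known to strengthen during a spike train, a property set by the adhesion protein Elfn1 acting on presynaptic mGluR7.

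The gene that names the cells is regulated in many cell types through a cyclic AMP response element (CRE) with the letters TGACGTCA, the site bound by the factor CREB. This motif, which reads the same on both strands, was searched in the 250 bases before the RefSeq start of each gene (GRCm38.p6). It was present in 508 of 32851 promoters of that length (1.55%). Among 14 genes of peptides and peptide-granule proteins, 10 had a promoter in the table, and 3 of those held the motif: Sst, Scg2 and Chgb. The promoters are shown 5′ to 3′ because these genes were measured together below, with the motif in capitals. The Sst promoter lies at chr16:23890845-23891094 on the minus strand, and its motif ends 40 bases before the start. That of Scg2, a granin of dense-core vesicles, lies at chr1:79440027-79440276 on the minus strand with the motif ending 60 bases before the start. That of Chgb, another granin, lies at chr2:132781392-132781641 on the plus strand with the motif ending 64 bases before the start. A match describes these letters only.
Sst: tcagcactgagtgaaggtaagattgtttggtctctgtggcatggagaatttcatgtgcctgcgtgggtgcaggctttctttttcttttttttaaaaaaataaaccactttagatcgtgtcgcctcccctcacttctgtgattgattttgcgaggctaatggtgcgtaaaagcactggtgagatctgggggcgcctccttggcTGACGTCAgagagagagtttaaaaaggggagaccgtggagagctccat
Scg2: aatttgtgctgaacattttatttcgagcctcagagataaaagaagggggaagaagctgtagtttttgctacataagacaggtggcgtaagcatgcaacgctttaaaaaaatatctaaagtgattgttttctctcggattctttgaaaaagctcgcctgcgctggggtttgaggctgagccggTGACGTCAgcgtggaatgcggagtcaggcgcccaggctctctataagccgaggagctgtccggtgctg
Chgb: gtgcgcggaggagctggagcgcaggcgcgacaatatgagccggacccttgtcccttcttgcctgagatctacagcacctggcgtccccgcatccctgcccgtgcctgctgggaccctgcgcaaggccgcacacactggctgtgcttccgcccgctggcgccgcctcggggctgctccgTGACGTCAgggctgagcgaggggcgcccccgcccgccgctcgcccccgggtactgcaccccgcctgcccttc

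The 4 libraries held 171323466 to 186897245 counts, with 7911 to 8442 barcodes of at least 5000 UMIs each. Nothing in the labels says that each library came from a separate animal, and if they did not, p-values measure only the spread between these preparations. No barcode of an Sst nucleus occurred among the Sst nuclei of another library, while 15 to 20 of all barcodes with at least 5000 UMIs were shared by each pair of libraries. The entry for the cre transgene had 0 counts in the Sst nuclei of all 4 libraries. It had only 166 and 163 counts over the 8442 and 7911 barcodes of Kat6a-cKO 1 and 2, and 0 in Control. At so few counts the 0 does not show that Sst nuclei lack it. The labels describe the tissue as hippocampus only, so layer and subfield of a nucleus are not known.

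Control replicates 1 and 2 held 100 Sst nuclei each, and Kat6a-cKO replicates 1 and 2 held 100 and 104. Sst nuclei were 1.21% and 1.26% of barcodes in Control and 1.18% and 1.31% in Kat6a-cKO, and the exact binomial 95% intervals together ran from 0.965% to 1.59%. The groups overlapped, and the difference of the means was 0.016 percentage points (two-sided exact permutation test, p = 1, n = 2 libraries per group). Its sign turned without Control 1 (−0.0065) and without Kat6a-cKO 2 (−0.049). As a share of GABAergic nuclei the Control libraries had 18.7% and 18.8%, and the Kat6a-cKO libraries 15.02% and 18.2%. The groups did not overlap (difference −2.17 percentage points, exact permutation p = 0.333, the smallest p that 2 libraries against 2 can give). With a minimum of 10 Sst UMIs or a maximum of 0 Slc17a7 UMIs the groups overlapped (exact permutation p = 0.667 in both, differences of −1.76 and −1.82). That difference was −0.57 without Kat6a-cKO 1 and −3.76 without Kat6a-cKO 2. Counts of Sst itself set membership: in Kat6a-cKO 1, 43 GABAergic nuclei had 2 Sst UMIs and met every other limit, just outside the limit, against 18, 18 and 11 in Control 1, Control 2 and Kat6a-cKO 2. Nuclei just inside, with exactly 3 Sst UMIs, numbered 17 and 6 in the Control libraries and 30 and 16 in the others.

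Sst, a peptide that inhibits release and excitability in its target cells, had a median of 7 and 8 UMIs per Sst nucleus in Control and of 5 and 8 in Kat6a-cKO, with a highest nucleus of 44, 51, 33 and 34. The nuclei were deep: the median total was 18802.5 and 18174 UMIs in Control and 17083 and 17641.5 in Kat6a-cKO, and the summed Sst nuclei of a library held 1782060 to 2020308 counts. Free RNA was gauged in excitatory nuclei of the same libraries, which should lack Sst and had median totals of 18953 to 20223.5 UMIs. Of these, 12.9% to 18.5% had at least 1 Sst UMI, but only 0.232% to 0.501% reached the 3 UMIs that the rule asks for. Scrublet, a doublet caller, marked 2, 1, 4 and 3 of the Sst nuclei in the order Control 1, Control 2, Kat6a-cKO 1, Kat6a-cKO 2. These were kept in the main values and left out in an alternative. A further 13, 11, 9 and 12 barcodes met every other limit but had more than 1 UMI of Slc17a7, the glutamate transporter of excitatory neurons, and were left out by the rule.

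The label was checked with Elfn1, the 1 marker of the 5 that the rule did not use. Its level, in counts per 1e+06 counts (CPM) of each library's summed Sst nuclei, was 466 and 455 in the Control libraries and 444 and 390 in the Kat6a-cKO libraries. In Sst-zero GABAergic nuclei, which met the limits on total, Gad1 plus Gad2 and Slc17a7 counts and had 0 Sst UMIs, with no condition on Nxph1 (1469 nuclei), it was 64.9, 66.7, 73.1 and 53.5 CPM. In Pvalb-type nuclei, which had at least 2 Pvalb and at most 2 Sst UMIs (192 nuclei), it was 31.5, 23.0, 53.3 and 38.2 CPM. Every Sst library was thus far above every library of the other sets, and the mean log2 ratio over Sst-zero nuclei was 2.68 ± 0.11 (SD, n = 4 libraries), with 5 added to each CPM. Because these sets were cut by Sst, every ratio between them is a description with no test.

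Regulators of the MGE lineage were detected. Lhx6, the LIM-homeodomain factor of MGE-derived interneurons, lay at 32.6, 33.3, 40.4 and 29.2 CPM. Sox6, which acts downstream of Lhx6, had a mean of 492 ± 50.4 CPM (SD, n = 4) against 202 in Sst-zero nuclei. Satb1, a chromatin organizer needed for maturation of Sst cells, had 439 ± 21.5 CPM against 127, while Mef2c was lower, at 251 ± 13.4 against 508. A gene is called 2-fold higher or lower here where the mean ratio reached that size and all 4 libraries had the same direction. Of the 12 genes of the MGE list, 2 were 2-fold higher than in Sst-zero nuclei and 1 was 2-fold lower. Over 6341 genes with a mean of at least 20 CPM in either set, 136 (2.14%) were higher and 238 (3.75%) lower by that measure. The median log2 ratio was 0.15 over the MGE list and 0.02 over those genes.

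Many marker genes of the other interneuron classes were lower than in Sst-zero nuclei. Adarb2, the mark of interneurons from the caudal ganglionic eminence (CGE), was at 19.6, 49.7, 144 and 48.5 CPM against 5297 to 6109 CPM in Sst-zero nuclei. Of 8 CGE genes, 5 were 2-fold lower and 0 higher, with a median log2 ratio of −1.65, and all 6 neurogliaform genes (Lamp5, Ndnf, Id2, Kit, Gabrd, Hapln1) were lower, with a median of −2.04. Vip had 0.99 to 6.17 CPM against a mean of 46.8, and Cnr1, the cannabinoid receptor of Cck cells, 102, 119, 87.5 and 77.2 CPM against a mean of 607. Of 5 genes in the Vip cell list 1 was 2-fold lower (median log2 ratio −0.27), of 5 in the Cck cell list 2 were (−0.67), and 0 were higher in either. Beside the counts of all these lists, 3.75% of all genes were lower and 2.14% higher by the same measure. Pvalb had 3.93 to 9.90 CPM, and the mean of 135 in Pvalb-type nuclei was set by their selection on Pvalb. Nuclei with at least 10 Adarb2 UMIs numbered 1, 4, 4 and 4, and those with at least 50 UMIs of Erbb4, the neuregulin receptor that was at 10403 to 11041 CPM in Pvalb-type nuclei, numbered 15, 6, 18 and 18. The summed level of the 18 glial and vascular markers was 125, 125, 101 and 81.7 CPM, and 1 of the 18 reached a mean of 20 CPM.

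The genes with the highest ratio over Sst-zero nuclei, after Sst itself, were Lypd6b, Man1a, Lama4, Trpc6, the noncoding Gm28175 and Olfm3. Lypd6b, which modulates nicotinic receptors, was at 350, 306, 331 and 281 CPM against 30.5 to 41.1. Trpc6, a cation channel of the TRPC family, was at 534, 463, 516 and 487 CPM against 60.4 to 80.1. Lama4, a laminin chain, was at 85.3, 63.0, 44.3 and 47.0 CPM against 0.938 to 4.88. Olfm3, an AMPA receptor associated protein, was at 372, 628, 379 and 701 CPM. Among the leading 20 were also the semaphorin Sema3a, the cofactor Zfpm2, the peptidase Trhde, the adhesion receptor Adgrl2, the dystrophin relative Utrn and the cadherin Cdh13. Over Pvalb-type nuclei their mean log2 ratios were 2.30, 2.21, 2.33, 1.25, 0.98 and 0.91, so Utrn and Cdh13 were under 2-fold there. The lowest ratios after Adarb2 belonged to Pde11a, Frem1, Cadps2 and Mctp2. Against Pvalb-type nuclei the mean log2 ratios of these genes were −4.41, −1.42, −0.49 and −3.83.

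Several glutamate receptor genes were higher in Sst nuclei. Of 23 receptor genes, 8 were 2-fold higher in Sst nuclei than in Sst-zero nuclei and 0 were lower, against 2.14% and 3.75% of all genes, with a median log2 ratio of 0.56. Grin3a, an NMDA receptor subunit that lowers calcium permeability, was at 529, 575, 534 and 511 CPM against 101 to 130. Grm7 was at 1854, 2009, 1787 and 1819 CPM against 524 to 667, and it is the same receptor that Elfn1 binds from across the synapse. Grm3, Grm8, Gria3 and Grik3 were also among the 8. Gria3 set Sst nuclei apart from Sst-zero nuclei (log2 ratio 1.27 ± 0.15, SD) but not from Pvalb-type nuclei, where the log2 ratio was −0.04.

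GABA receptor, channel and adhesion genes differed in both directions or in few members. Gabrg3, a GABA-A receptor subunit, was at 600, 630, 805 and 689 CPM against 2890 to 3216, and Gabra4 and Gabrd were the other members of the 14-gene list that were 2-fold lower. No gene of that list was 2-fold higher than in Sst-zero nuclei, whereas 2 were higher and 3 lower than in Pvalb-type nuclei, where 5.01% of all genes were higher and 3.33% lower. Of 31 voltage-gated channel genes, 1 was 2-fold higher than in Sst-zero nuclei and 4 lower, against 2.14% and 3.75% of all genes, and 8 were higher and 6 lower than in Pvalb-type nuclei (5.01% and 3.33% of all genes). The 1 higher gene was Cacna2d3, an auxiliary calcium channel subunit, at 2755, 2820, 2828 and 2718 CPM against 671 to 792. Cacna2d1, its relative, was lower at 42.1, 55.8, 82.5 and 63.9 CPM against 940 to 1005, as were Kcnq5, Kcnh7 and Kcnip1. Pvalb-type nuclei shared the low level of Cacna2d1, with a mean of 50.8 CPM (log2 ratio 0.23 ± 0.45, SD). Among 29 adhesion genes Elfn1, Cdh9 and Cdh13 were higher than in Sst-zero nuclei and Nxph2, Cntnap4, Erbb4 and Ptprd lower. Gad1, a gene of the rule, had a mean of 82.6 CPM in Sst nuclei and 170 in Sst-zero nuclei, and Gad2, another, had 490 and 492.

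**Figure D1:**
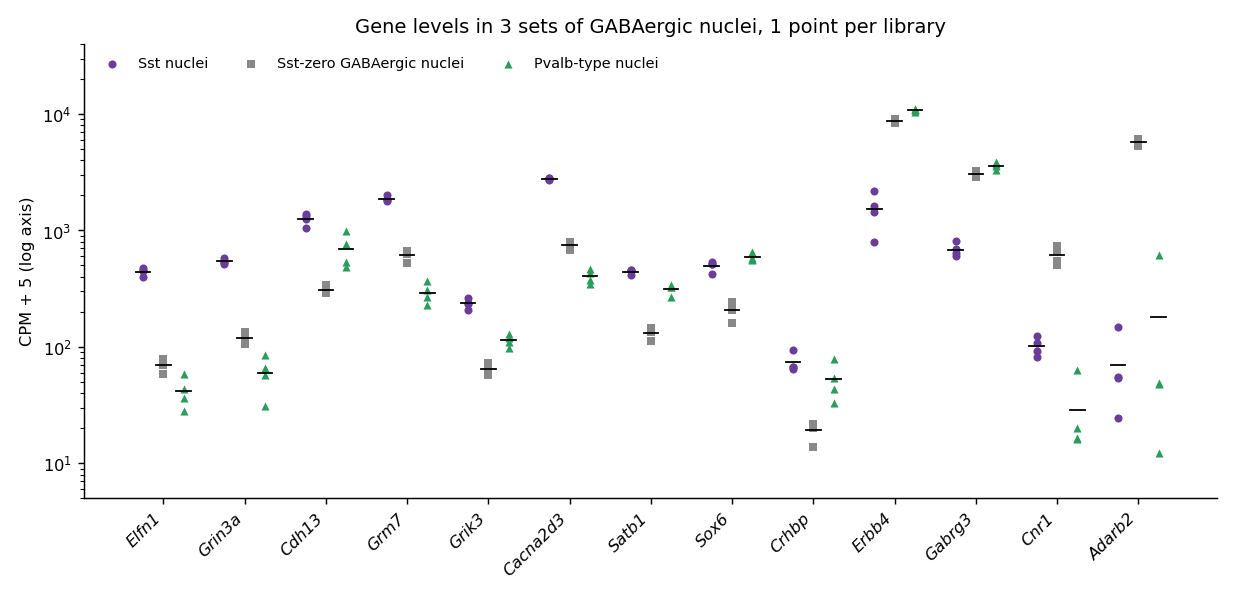
Levels of 13 genes in Sst nuclei (circles), Sst-zero GABAergic nuclei (squares) and Pvalb-type nuclei (triangles), each point being 1 library and each bar a mean over 4 libraries, as CPM + 5 on a log axis. Elfn1 lies at 390 to 466 CPM in Sst nuclei and at or below 73.1 CPM elsewhere, whereas Erbb4, Gabrg3, Cnr1 and Adarb2 lie below the Sst-zero nuclei in every library.

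Peptides other than Sst were sparse. Npy, neuropeptide Y, was at 72.7, 96.8, 44.3 and 83.7 CPM, and Crhbp, the binding protein of corticotropin-releasing hormone, at 62.7, 89.1, 59.5 and 62.4 CPM. Sst was at 492, 599, 400 and 508 CPM, Scg2 at 52.2, 73.7, 54.4 and 61.4, and Chgb at 47.6, 64.0, 49.9 and 45.5. Control 2 was the highest library for all 5 of these genes, which include the 3 whose promoters are printed above, and Kat6a-cKO 1 was lowest for Sst, Npy and Crhbp. Cort (cortistatin, a somatostatin relative) had 5.61 to 9.03 CPM, while Penk, Pdyn, Crh and Tac1 stayed at or under 6.52 CPM in every library. Besides Sst, which the rule used, Npy, Crhbp and Vgf were 2-fold higher than in Sst-zero nuclei and Vip lower, among 14 listed genes with Sst, against 2.14% and 3.75% of all genes.

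Most Sst nuclei carried Elfn1 and Reln. At least 3 Elfn1 UMIs were present in 84%, 85%, 73% and 80.8% of Sst nuclei (Control 1, Control 2, Kat6a-cKO 1, Kat6a-cKO 2; 11.4% to 17.1% of Sst-zero nuclei), and at least 3 UMIs of Reln, which encodes the secreted protein reelin, in 78%, 79%, 74% and 76.9% (32.4% to 38.6%). With every nucleus thinned to 5000 UMIs the Sst shares became 32% to 37% for Elfn1 and 50% to 58% for Reln, against 2.59% to 4.97% and 20.5% to 24.7% of Sst-zero nuclei. The shares of the 4 libraries lay within each other's exact binomial intervals for Reln, which ran from 64.3% to 86.5%. For Elfn1 the 73% of Kat6a-cKO 1 lay below the intervals of Control 1 (75.3% to 90.6%) and Control 2 (76.5% to 91.4%). In the Sst-zero nuclei the median totals were 14863 to 17056 UMIs, below those of Sst nuclei.

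Smaller fractions carried other subtype genes. At least 3 Npy UMIs were found in 14%, 23%, 9% and 21.2% of Sst nuclei (2.33% to 8.39% of Sst-zero nuclei), at least 3 Crhbp UMIs in 19%, 24%, 18% and 19.2% (1.24% to 3.63%), and at least 3 UMIs of the calcium buffer Calb1 in 11%, 14%, 6% and 11.5% (1.55% to 5.12%). Thinned to 5000 UMIs, the Sst shares were 2% to 6% for Npy, 1% to 4% for Crhbp and 0% to 2% for Calb1, against 0% to 2.11%, 0% to 0.604% and 0% to 0.604% of Sst-zero nuclei, so that the ranges overlapped for Npy and Calb1. Cort was seen in 6% to 16% (2.79% to 8.07% of Sst-zero nuclei, so that the ranges overlapped) and Pvalb in 7% to 14.4%, and for Pvalb this was below the 18.7% to 19.9% of Sst-zero nuclei. Chrna2, a nicotinic subunit used to mark O-LM cells, was seen in 3, 2, 5 and 0 nuclei. Nos1, a marker of long-range projecting Sst cells, reached 3 UMIs in 2, 1, 0 and 2 nuclei and Chodl was seen in 1, 2, 0 and 2. Penk reached 3 UMIs in 0 nuclei of any library, which allows up to 3% of nuclei with that many UMIs in the libraries with 100 nuclei and does not limit the share of cells that express it. These intervals and limits cover counting error only.

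**Figure D2:**
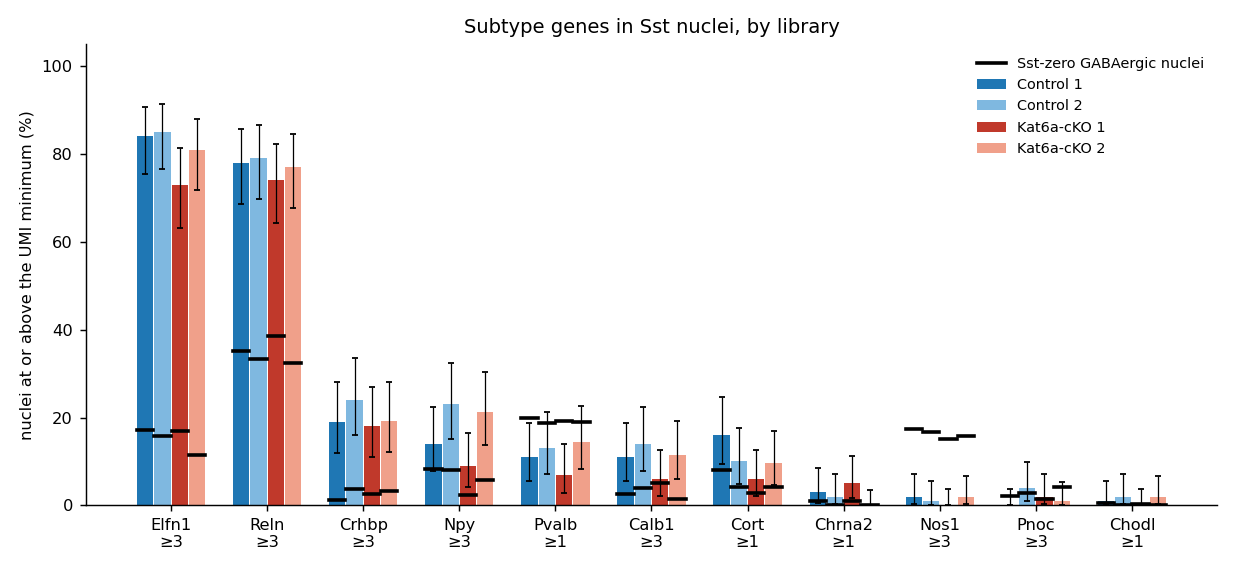
Percent of Sst nuclei at or above the UMI minimum written under each gene, with 1 bar per library, exact binomial 95% intervals as error bars and black lines for the Sst-zero GABAergic nuclei of the same library. Elfn1 and Reln are present in 73% to 85% of Sst nuclei, and Nos1, Pnoc, Chrna2 and Chodl in at most 5%.

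Reln divided the Sst nuclei into groups that differed in many transcripts. Nuclei with at least 3 Reln UMIs (78, 79, 74 and 80 per library) were compared with those under 3 (22, 21, 26 and 24) in sums per library, with the library as a block. Of 7957 genes tested, leaving Reln out, 125 (1.57%) were higher and 147 (1.85%) lower in Reln-high nuclei by edgeR's quasi-likelihood test at an adjusted p under 0.05. The median UMI total was higher on the Reln-high side, by the least in Control 1 (18802.5 against 18070) and by the most in Kat6a-cKO 1 (17971.5 against 14709). With nuclei thinned to 5000 UMIs and divided again, 203 genes were called, 132 of them among the 219 original calls that could still be tested. Leaving out each library in turn gave 169 (without Kat6a-cKO 2) to 289 calls, and 130 of the 272 were called each time.

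Rgs6, a regulator that speeds the shut-off of G proteins, was at 760, 538, 611 and 700 CPM against 134, 19.47, 116 and 30.2 CPM in Reln-low nuclei. Its log2 difference in Reln-high nuclei was 3.21 ± 0.29 (SE, adjusted p = 2.2e-05), and it was higher in 4 of 4 libraries without overlap. Eya1, a transcriptional coactivator, was at 206, 147, 223 and 283 CPM against 36.5, 9.73, 24.2 and 93.2 (log2 2.47 ± 0.25). Col19a1, a collagen known for its part in inhibitory synapse formation, was at 1151, 1037, 1230 and 1222 CPM against 267, 183, 222 and 386 (log2 2.17 ± 0.15). The sides did not overlap for either gene. Stk32b, Plpp4, Unc13c, Gas7 and Trpm3 were higher too, with log2 differences of 3.06, 2.69, 2.41, 2.23 and 2.19. Each was higher in 4 of 4 libraries and was called with each library left out and in thinned nuclei. The thinned values were smaller, at 2.56, 1.27, 1.87, 1.47 and 1.48 for these 5 genes and 1.69, 1.44 and 1.36 for Rgs6, Eya1 and Col19a1. On the Reln-low side Stk32b had 6, 1, 1 and 2 counts, Plpp4 2, 1, 3 and 12, and Unc13c 1, 16, 9 and 1. The differences of Stk32b, Plpp4 and Unc13c therefore rest on few counts there. Igf1, insulin-like growth factor 1, was higher by 1.94 ± 0.20 on the log2 scale.

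In Reln-low nuclei the leading genes were Htr2c, Shisa9, Spon1 and Inpp4b. Shisa9, an auxiliary AMPA receptor protein, was at 231, 246, 505 and 320 CPM in Reln-low nuclei against 22.4, 49.7, 46.2 and 43.3 in Reln-high nuclei, a log2 difference of −2.98 ± 0.18 (edgeR adjusted p = 1.6e-06). Spon1, the extracellular protein F-spondin, was at 170, 594, 266 and 250 CPM against 31.6, 46.4, 34.6 and 47.1 (log2 −2.91 ± 0.19). Htr2c, a serotonin receptor, was at 51.0, 85.2, 84.6 and 257 CPM against 11.9, 7.96, 5.39 and 10.2 (log2 −3.64 ± 0.32). None of the 3 overlapped between sides. Nos1 was also lower in Reln-high nuclei (log2 −3.51), but the Reln-low level of 207 CPM in Kat6a-cKO 2 stood against 17.01 to 29.2 in the others, and without that library the adjusted p was 0.0602 (log2 −2.05).

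Lists of known genes were divided in the same way, and their counts stand beside the 1.57% of all genes higher and 1.85% lower. Among subtype lists, 3 of 4 long-range projection genes and 3 of 5 bistratified and Pvalb genes tested were lower, with 0 higher. Of 5 O-LM genes tested, 1 was higher and 2 lower. In that order of lists, 0, 2 and 1 genes stayed called with each library left out. The CGE (3 tested), neurogliaform (2), Vip (1) and Cck (3) lists had 1 higher gene each and 0 lower. Of 22 glutamate receptor genes tested, 3 (Grin3a among them) were higher in Reln-high nuclei and 0 lower, with a median log2 difference of 0.09 against 0.00 over all genes. Grin3a (0.59 ± 0.14) was not called in thinned nuclei (log2 0.43), and it was called only without Control 2 when 1 library was left out (adjusted p 0.117 to 0.160 without each of the others). Of 4 acetylcholine receptor genes tested, Chrm3 (1.11 ± 0.14) and Chrna7 (1.02 ± 0.17) were higher and Chrm2 (−1.14 ± 0.20) lower, the last with an adjusted p of 0.0599 without Kat6a-cKO 2. Among 12 GABA receptor genes, Gabrg3 (−1.40 ± 0.17) and Gabra4 (−0.88 ± 0.20) were lower and 0 higher, and Gabra4 was not called without Control 1 (adjusted p 0.160), without Kat6a-cKO 1 (0.0765) or in thinned nuclei (log2 −0.85).

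Of 29 channel genes, 3 were higher (Kcnd3, Kcnmb2, Cacna2d3) and 3 lower (Kcnc1, Scn1a, Kcnip1), against 1.57% and 1.85% of all genes. Of these Kcnd3 (0.94 ± 0.14), an A-type potassium channel, and Kcnip1 (−1.20 ± 0.15), a partner of such channels, were called in thinned nuclei and with each library left out, at 0.80 and −0.68 when thinned. Kcnmb2 was called with each library left out but not in thinned nuclei (log2 0.28). Kcnc1 was not called without Kat6a-cKO 1 or 2 (adjusted p 0.0804 and 0.269). Without Control 1, Kat6a-cKO 1 or Kat6a-cKO 2 the adjusted p was 0.0582, 0.104 and 0.113 for Scn1a and 0.157, 0.0666 and 0.109 for Cacna2d3. Of 24 adhesion genes, 4 were lower (Erbb4, Cntnap2, Cntnap4, Cntnap5a) and 0 higher, and without Kat6a-cKO 2 the adjusted p was 0.0509 for Cntnap2 and 0.109 for Cntnap5a. Cntnap5a also missed the threshold without Control 1 (0.275) and Control 2 (0.0944). Erbb4 was at 3099, 1034, 5412 and 2785 CPM in Reln-low nuclei against 1062, 735, 1286 and 1386, so the sides overlapped only through Control 2. Within each library it was lower in Reln-high nuclei, with a log2 difference of −1.29 ± 0.20. Of the 8 MGE genes tested Mef2c was lower (−0.82 ± 0.12), and the other 7 were not called. Of 8 peptide genes tested Npy was lower by this division (−1.15 ± 0.21), with an adjusted p of 0.0775 without Kat6a-cKO 2. In the lists of Kat6a complex members (8 tested), Rspo and Wnt receptor genes (7), immediate early genes (3), nuclear and cytoplasmic RNA (11) and glial genes (2), 0 genes were called.

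Npy gave a second division of the same nuclei. Nuclei with at least 1 Npy UMI (41, 47, 35 and 46) were compared with those with 0 (59, 53, 65 and 58). At least 1 Npy UMI was also present in 5.08% to 7.14% of excitatory nuclei, where free RNA can give it, against 35% to 47% of Sst nuclei, so a nucleus on the positive side may hold no Npy RNA of its own. Of 8268 genes, leaving Npy out, 48 (0.581%) were higher and 65 (0.786%) lower in Npy-positive nuclei by the same test. Npy-positive nuclei had the higher median total in each library, the widest in Kat6a-cKO 2 (19728 against 15854 UMIs), and 35 genes were called in thinned nuclei. Leaving out each library gave 40 to 173 calls, with 33 of the 113 called each time. The lowest count was without Kat6a-cKO 2 and the highest without Kat6a-cKO 1.

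Gpc6, a heparan sulfate carrier of the glypican family, was at 1979, 2373, 2575 and 1955 CPM in Npy-positive nuclei against 820, 969, 992 and 836, with a log2 difference of 1.29 ± 0.08 (SE, edgeR adjusted p = 5.5e-07). The sides did not overlap, and the same held for Dgkb, a diacylglycerol kinase, at 401, 470, 434 and 550 CPM against 213, 225, 226 and 202 (log2 1.09 ± 0.10). Tmem132d was higher by 0.96 ± 0.10 and Kcnip1 by 0.89 ± 0.11. All 4 genes were called in thinned nuclei and with each library left out. Crhbp was higher by 0.72 ± 0.15 (4 of 4 libraries), yet its adjusted p was 0.136, 0.111 and 0.0622 without Control 1, Control 2 and Kat6a-cKO 1. In thinned nuclei it was called at 1.24 (adjusted p 0.0150). Malat1, a nuclear noncoding RNA in the list of nuclear and cytoplasmic RNA, was the 1 of 11 in that list called higher (0.35 ± 0.08, edgeR adjusted p = 0.0355, 4 of 4 libraries). It was not called in thinned nuclei (0.16) or without Control 1, Control 2 or Kat6a-cKO 2 (adjusted p 0.176, 0.118 and 0.139), and its part in the other differences was not tested.

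Zfp804b, a zinc finger gene, was lower in Npy-positive nuclei, at 248, 274, 362 and 71.3 CPM against 822, 952, 1132 and 717 (log2 −2.04 ± 0.19, adjusted p = 5.1e-05), with no overlap. Rgs6, Eya1 and Trpm3 were lower here, with log2 differences of −1.30 ± 0.15, −1.55 ± 0.17 and −0.87 ± 0.11, while each was higher in Reln-high nuclei by the values above. Kcnip1 was higher in Npy-positive nuclei and lower in Reln-high nuclei. The divisions use the same nuclei and are not independent of each other. Cnr1 (−1.18 ± 0.17) and Chrm3 (−0.61 ± 0.09) were lower as well, though neither was called in thinned nuclei (−0.65 and −0.56). Of 22 glutamate receptor genes tested, Grm8, Gria1 and Gria4 were higher and Grik1 lower (against 0.581% and 0.786% of all genes), and 0 of these 4 were called in thinned nuclei. Grm8 was called with each library left out, and Gria1 missed the threshold without Kat6a-cKO 2 (adjusted p 0.0575). Without Control 1, Control 2 or Kat6a-cKO 2 the adjusted p was 0.0503, 0.0517 and 0.0618 for Gria4 and 0.120, 0.0715 and 0.180 for Grik1.

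**Figure D3:**
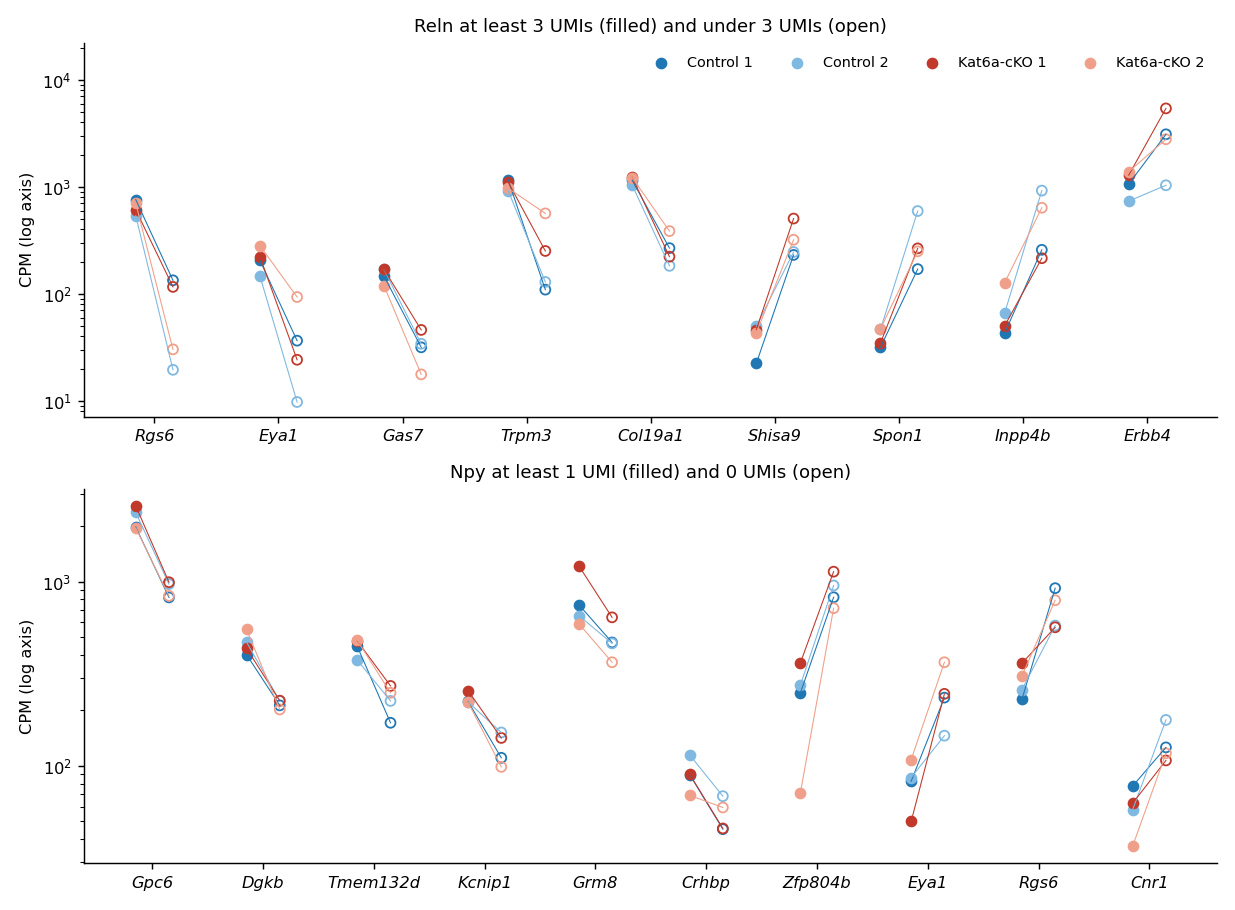
TMM-scaled CPM on a log axis in the summed Sst nuclei of each library, divided by Reln (upper panel) and by Npy (lower panel), with filled points for the side that has the gene, open points for the other side and lines joining the sides of 1 library. Rgs6 and Eya1 fall from filled to open points in the upper panel and rise in the lower one in all 4 libraries.

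Elfn1 marked a further group, chosen after values had been seen and therefore described with no test. Nuclei under 3 Elfn1 UMIs numbered 16, 15, 27 and 20, and they had lower median totals (11781 to 15503 UMIs) than the rest (18289 to 19318). At least 3 Reln UMIs were present in 43.8%, 60%, 48.1% and 55% of these Elfn1-low nuclei. The shares were 84.5%, 82.4%, 83.6% and 82.1% of Elfn1-high nuclei, so this group and the division by Reln are not independent of each other. With 5 added to each CPM, 54 of 6442 genes (0.838%) were 2-fold higher in Elfn1-high nuclei and 77 (1.2%) 2-fold lower, on average and in the same direction in all 4 libraries. Sst, which the rule used on both sides, was at 482, 595, 434 and 519 CPM in Elfn1-high and 557, 630, 286 and 451 in Elfn1-low nuclei. Lhx6 was at 34.4, 34.9, 41.1 and 27.9 CPM against 21.4, 21.4, 38.1 and 36.1, higher on the Elfn1-high side in every library but Kat6a-cKO 2. With so few Elfn1-low nuclei, its level on that side rests on few counts.

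Among the genes on the Elfn1-low side was Erbb4, also high in Pvalb-type nuclei. It was at 5543, 1192, 6025 and 4168 CPM in Elfn1-low nuclei against 779, 730, 1014 and 1123 in Elfn1-high nuclei. Btbd11, a scaffold protein of interneuron synapses, was at 243, 219, 222 and 234 CPM against 48.4, 52.9, 49.9 and 51.6 (log2 −2.07 ± 0.11, SD over 4 libraries). Ptprk, Pard3b, Slc4a4, Gabrg3, Chrm2 and Cntnap4 lay on the same side, with mean log2 ratios of −2.66, −2.52, −2.22, −1.78, −1.83 and −1.39. Slc1a3, a glutamate transporter of astrocytes, was at 71.4, 4.29, 11.9 and 18.03 CPM in Elfn1-low nuclei against 14.002, 3.49, 0.734 and 7.70, and its part in these differences was not tested. Pvalb had 19.6 CPM in Elfn1-low nuclei, against 5.38 in Elfn1-high nuclei and 135 in Pvalb-type nuclei. On the Elfn1-high side, Grm8 was at 645, 607, 1030 and 539 CPM against 136, 90.1, 129 and 54.1, and Lama4, Stk32b, Plpp4, the dopamine receptor Drd2 and Cntn6 followed. In Elfn1-low nuclei Stk32b was at 3.57, 0, 7.15 and 3.01 CPM and Drd2 at 3.57, 8.58, 0 and 3.01. Lama4 and Plpp4 were at most 14.3 and 21.4 CPM in those nuclei, so these ratios rest on few counts. Reln (891 against 476 CPM) was higher in Elfn1-high nuclei too.

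By nucleus, the median of Erbb4 was 128.5, 8, 37 and 53 UMIs in Elfn1-low nuclei and 8.5, 8, 10 and 12.5 in Elfn1-high nuclei. Control 2 lacked the difference in medians, and 2 of its 15 Elfn1-low nuclei had at least 50 Erbb4 UMIs, against 9 of 16 in Control 1, 12 of 27 in Kat6a-cKO 1 and 10 of 20 in Kat6a-cKO 2. Scrublet marked at most 4 Sst nuclei in any library, and the part of mixed droplets in this pattern was not tested.

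**Figure D4:**
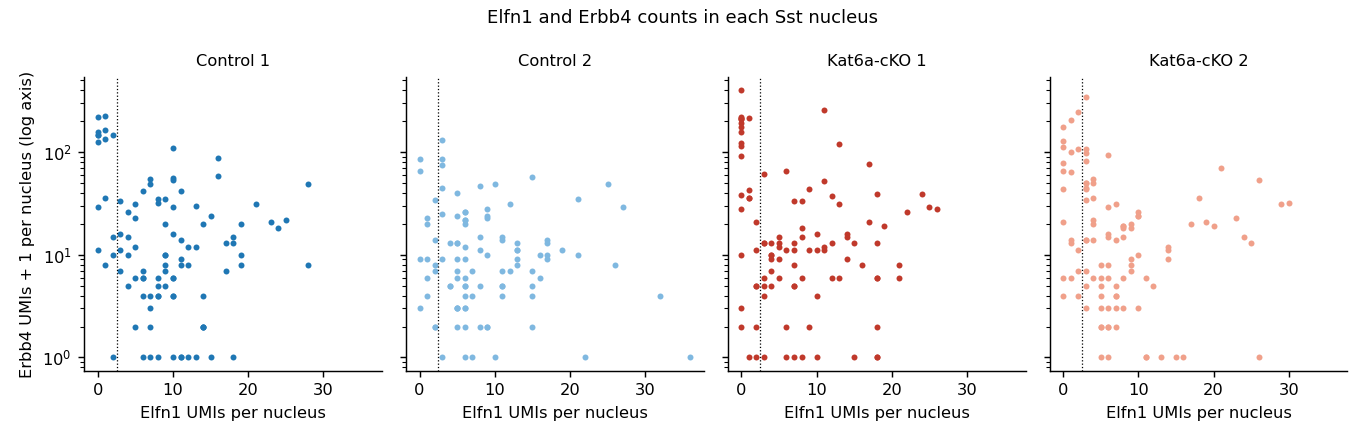
Erbb4 UMIs + 1 (log axis) against Elfn1 UMIs in each of the 404 Sst nuclei, 1 panel per library, with a dotted line at the limit of 3 Elfn1 UMIs. Of the Elfn1-low nuclei, 9 of 16 in Control 1, 2 of 15 in Control 2, 12 of 27 in Kat6a-cKO 1 and 10 of 20 in Kat6a-cKO 2 lie at or above 50 Erbb4 UMIs.

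For the genotype, Kat6a itself was examined first. It was at 58.5 and 59.3 CPM in Control and 67.8 and 67.2 in Kat6a-cKO Sst nuclei (TMM-scaled), a log2 difference of 0.20 ± 0.15 (SE, edgeR adjusted p = 0.970). The counts cover the whole gene and check nothing about the deleted part. NEX-cre is not directed to interneurons, and whether it acted in any Sst nucleus was not measured. Kat6b, its paralog, was at 186 and 175 CPM in Control and 198 and 199 in Kat6a-cKO (log2 0.14 ± 0.11). Of the 10 members of the Kat6a complex list, 8 were tested and 0 called.

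No gene of 10230 tested differed between Kat6a-cKO and Control Sst nuclei at an adjusted p under 0.05 in edgeR's quasi-likelihood test. At an unadjusted p under 0.05 there were 535 (5.23%), of which 243 (2.38%) were higher in Kat6a-cKO and 292 (2.85%) lower, and DESeq2 called 0, with 89 at an unadjusted p under 0.05. The call count rested on which library was left out: 49 genes without Control 1, 29 without Control 2 and 0 without either Kat6a-cKO library. The fit that drops a library assumes that the lone sample left varies like the other group.

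Of the genes of Sst cells, Elfn1 was at 473 and 455 CPM in Control and 455 and 394 in Kat6a-cKO (log2 −0.13 ± 0.11), and Sst, a gene of the rule whose level its limit partly sets, at 500 and 598 against 409 and 514 (−0.25). Npy was at 73.8 and 96.7 against 45.4 and 84.7 (−0.37 ± 0.24), with overlapping groups. Of the 22 glutamate receptor genes tested, 4 lay higher in both Kat6a-cKO libraries than in both Control libraries and 4 lower, against 16.5% and 17.5% of all genes, with a median log2 difference of 0.02 against 0.00. Over 12 GABA receptor genes the median was 0.10, over 30 channel genes 0.02, over 9 MGE genes 0.09, over 8 immediate early genes 0.17 and over 8 Rspo and Wnt receptor genes 0.08, with 0 called in each list.

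The gene of smallest p was Actb, cytoskeletal beta-actin (chromosome 5, 142903115 to 142906754, GENCODE M21), at 143 and 164 CPM in Control and 77.02 and 87.2 in Kat6a-cKO. Its log2 difference was −0.90 ± 0.13 with an adjusted p of 0.242, and it ranged from −0.996 to −0.72 over the alternatives. It was called without Control 1 (adjusted p 3.0e-05) and without Control 2 (0.010), and not without either Kat6a-cKO library. Most ribosomal protein genes and some mitochondrial genes lay in the same direction. Rps21, a ribosomal protein gene, was at 43.2 and 44.5 against 23.6 and 22.6 CPM, and mt-Cytb at 52.9 and 47.1 against 31.0 and 24.6. CT010467.1, an entry for ribosomal RNA, was at 2159 and 2089 against 1647 and 1490 CPM. Of 64 ribosomal protein genes tested, 43 were lower in both Kat6a-cKO libraries (67.2%, against 17.5% of all genes) and 1 higher, and 0 passed the adjusted threshold. Of 13 mitochondrial genes, 4 were lower in both (30.8%) and 2 higher (15.4%, against 16.5% of all genes), with log2 differences of −0.86 to 0.68 and 0 called.

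Together the ribosomal protein genes made up 0.142% and 0.149% of counts in Control Sst nuclei and 0.107% and 0.102% in Kat6a-cKO, and mitochondrial genes 0.0802% and 0.0759% against 0.0698% and 0.0451%. Sst-zero nuclei of the same libraries held 0.155% and 0.149% of ribosomal protein RNA in Control and 0.112% and 0.110% in Kat6a-cKO. These RNAs are mostly cytoplasmic, their level moved with the genotype in both sets of nuclei, and their part in the other differences was not tested. Fth1 (ferritin heavy chain), also abundant in cytoplasm, was at 119 and 148 against 93.1 and 88.2 CPM. It was called without Control 1 only (adjusted p 0.0185).

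Markers of other cells were read in the same way. The 12 excitatory neuron markers summed to 520 and 661 CPM in Control and 526 and 589 in Kat6a-cKO Sst nuclei, and of 7 tested 1 was higher and 1 lower without overlap (14.3% each, against 16.5% and 17.5% of all genes). Neurod6, the locus of NEX-cre, was the lower one, with 16 and 21 counts against 8 and 7 (log2 −1.22 ± 0.43, edgeR adjusted p = 0.906). The sums over all 12 excitatory markers overlapped between the groups, but a sum over a subset of them did not. In Sst nuclei that smaller sum was 14.6 and 22.8 CPM for the Kat6a-cKO libraries, against 27.1 and 29.2 CPM for Control. Most of the larger sum thus came from listed genes outside the subset, whose separate levels are not given here. Slc17a7, which the rule limits, is 1 of them. The glial and vascular sum given above was also lower in both Kat6a-cKO libraries. The part of such RNA in the genotype values was not tested.

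Of the genes higher in Kat6a-cKO, Pdzrn3, a ubiquitin ligase with PDZ domains, was at 14.8 and 10.7 CPM in Control and 40.2 and 32.1 in Kat6a-cKO (log2 1.49 ± 0.26, adjusted p = 0.292). Egfem1 was at 602 and 521 against 822 and 863 CPM (0.58 ± 0.10), and Caln1, a calcium-binding protein, at 36.1 and 53.2 against 77.02 and 102 (1.01 ± 0.20). Leaving out Control 1 gave an adjusted p of 0.00051 for Pdzrn3, 0.00058 for Egfem1 and 0.0504 for Caln1, and leaving out Control 2 gave 0.0430, 0.126 and 8.5e-05. Pdzrn3 and Slc4a4 were also 2-fold higher in Elfn1-low nuclei (mean log2 ratios of −2.07 and −2.22), as was Erbb4. By genotype Erbb4 was at 1469 and 785 CPM against 2247 and 1645, whose log2 difference of 0.79 became 1.31 (called) without Control 1, 0.40 without Control 2 and 0.0095 with a minimum of 10 Sst UMIs. The Elfn1-low nuclei were 16 and 15 of 100 in Control and 27 of 100 and 20 of 104 in Kat6a-cKO. Without the nuclei of at least 50 Erbb4 or 10 Adarb2 UMIs, an alternative added after seeing the data, Pdzrn3 stood at a log2 difference of 0.82, Prr16 at 0.14 in place of 1.15 and Caln1 at 0.98. Prr16 was called without Control 1 (0.89) and without Control 2 (1.48). The part of these nuclei in the genotype values was not tested beyond this.

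Hs3st4, a heparan sulfate sulfotransferase, was at 41.7 and 32.2 CPM in Control and 89.7 and 63.1 in Kat6a-cKO (log2 1.04 ± 0.21, adjusted p = 0.472), and was called without Control 1 (adjusted p 0.00019). In Kat6a-cKO 2, 103 of its 126 counts came from the 3 nuclei that Scrublet marked, and in Kat6a-cKO 1, 68 of 156 came from 4 such nuclei. Without them the log2 difference turned to −0.17. Arpp21 and Slc4a4 dropped likewise, from 0.82 to 0.35 and from 0.81 to 0.30, and Slc4a4 was called without Control 2 (adjusted p 0.0137). For Actb the value without these nuclei was −0.91.

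**Figure D5:**
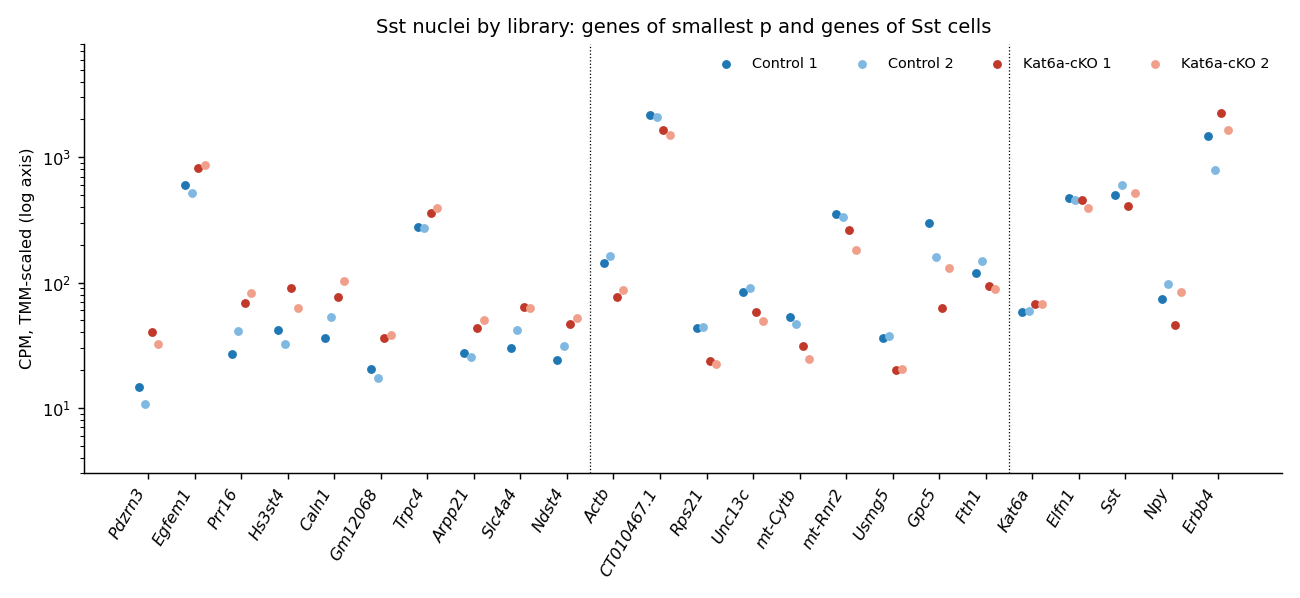
TMM-scaled CPM of Sst nuclei in each library on a log axis, for 10 higher and 9 lower genes of small unadjusted p whose groups do not overlap. To the right are Kat6a, Elfn1, Sst, Npy and Erbb4. Actb lies at 143 and 164 CPM in Control and 77.02 and 87.2 in Kat6a-cKO, Elfn1 differs little, and 0 of these genes pass the adjusted threshold.

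Whether the genotype effect in Sst nuclei differed from that in Sst-zero GABAergic nuclei of the same libraries was tested by an interaction term with the library as a block. Of 12717 genes, 0 passed the adjusted threshold and 505 (3.97%) had an unadjusted p under 0.05. The smallest p belonged to Zfp804a, at 79.5 and 91.6 CPM in Control and 136 and 116 in Kat6a-cKO Sst nuclei, and at 468 and 487 against 434 and 329 in Sst-zero nuclei (difference of log2 differences 0.89 ± 0.13, adjusted p = 0.289). It was called without Control 2, Kat6a-cKO 1 or Kat6a-cKO 2 (adjusted p 0.00878, 0.00106 and 0.00523). Without Control 1, Control 2, Kat6a-cKO 1 or Kat6a-cKO 2 the count of genes was 1, 9, 38 and 28. In Sst-zero nuclei alone, 8 of 13279 genes (0.0602%) were called by genotype: Hs3st4 was higher, and Fth1, mt-Cytb, mt-Rnr2, Rpl37, Actb, Ubb and CT010467.1 were lower. That fit kept called doublets and was not repeated with a library left out. The part of doublets in its Hs3st4 value was not tested. Actb differed by −0.70 ± 0.11 in Sst-zero nuclei and by −0.90 ± 0.13 in Sst nuclei on the log2 scale, and the interaction of −0.22 had an adjusted p of 0.999. The values in both sets come from the same libraries and are not independent.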

How the data were processed

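The authors deposited raw counts per droplet barcode and gene for each of the 4 libraries (UMI counts, 10x Genomics Chromium kit per the labels' protocols). Seurat 4.0.1 and the mouse build mm10 are named in the submitters' processing notes. The aligner, annotation release and use of strand are not given in the sources used here, so reads of a gene and of an overlapping or antisense gene cannot be told apart. The files list 55422 gene IDs, and 54587 matched GENCODE M21 by ID and version, from which positions were taken. Promoter sequences are those of RefSeq for GRCm38.p6.

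Barcodes were selected by the UMI limits given above, with the library as the replicate, and counts were summed per library. Membership, gene lists and divisions were chosen with earlier results of these data known. Sums were tested with edgeR 4.0.16 (quasi-likelihood test, TMM, filterByExpr, Benjamini-Hochberg adjustment over all genes tested, threshold 0.05) in R 4.3.3, with DESeq2 1.42.0 as an alternative. The SE of a log2 difference is its size divided by the square root of the F statistic. CPM in fits and divisions by Reln or Npy are TMM-scaled, and other CPM use plain totals. Doublets were called with Scrublet in scanpy 1.11.5, and exact tests used scipy 1.17.1. The division by Reln was planned at 3 UMIs against 0 and that by Npy at 3 against 0, but 1 library then had only 9 nuclei on 1 side, below the minimum of 10, so under 3 Reln UMIs and at least 1 Npy UMI were used.

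Named genes were those past the threshold with non-overlapping groups, or else the 10 of smallest p each way with a mean of at least 20 CPM, Kat6a, cre, Neurod6, Elfn1 and list members. For the divisions they were up to 12 each way by size with a mean of at least 20 CPM, and list members past the threshold. For marker genes they were the 20 of highest ratio. In simulated counts for the genotype comparison (9976 genes), edgeR called 178 of the 200 genes given a log2 change of 1, and 15 unchanged genes. Only genes with a mean of at least 20 CPM were given a change. The counts followed the fitted trend of spread with no further spread from gene to gene, so the share called does not measure the power in the real counts. With no gene changed 0 were called. Alternatives covered filters, scaling, DESeq2, a replicate block, UMI and Sst minimums, Slc17a7 at 0, doublets, thinning to 5000 UMIs, Erbb4-high and Adarb2-high nuclei (added after seeing the data) and each library left out. Some genes are not reported here.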

Additional observations from a re-analysis of the deposited data

Results flagged for a closer look

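The entry for the cre transgene, which enters no comparison above, had 166 and 163 counts in barcodes with at least 5000 UMIs of Kat6a-cKO 1 and 2 and 0 in both Control libraries. In Sst nuclei it had 0 counts in all 4 libraries, which at so few counts does not show that they lack it.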

How the results depend on the processing

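The genotype comparison called 0 genes with DESeq2, other filters or scaling, other limits on nuclei, doublets left out, thinned nuclei, and a replicate block (0 called, 569 at an unadjusted p under 0.05). Library numbers do not pair the samples by any label, and same-numbered deviations correlated at 0.0936 over 6044 genes. Leaving out each library gave 0 to 49 genotype calls, 1 to 38 for the interaction, 169 to 289 for Reln and 40 to 173 for Npy. The interaction gave 1 call against Sst-zero nuclei with under 10 Adarb2 UMIs, an alternative added after seeing the data, and the Npy division gave 35 in thinned nuclei. The difference in the share of barcodes was −0.00585 with a minimum of 10000 UMIs, −0.0688 with 10 Sst UMIs and −0.00189 without called doublets, and −0.0490 to 0.0811 with a library left out. Log2 differences changed sign for Hs3st4 without called doublets (−0.17), and with 10 Sst UMIs for Unc13c (0.0026) and Kat6a (−0.12). The cause of these shifts was not tested, and fewer nuclei enter each of them. With 100 to 104 nuclei per library, genes under about 20 CPM rest on few counts.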
